A study of Homo sapiens with 4 samples.

Results

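STC2, STC1, GDF15, VEGFA and VLDLR encode secreted or cell-surface proteins whose transcripts are known to rise when cells are stressed. They were followed here through every probe set whose platform annotation names 1 of these 5 genes alone, which gave 12 of the 22215 probe sets on the array, or 5 of 11963 genes. The set was chosen by function and with earlier results of these arrays known, among them the lower STC2 signal after MED1 transfection. Their differences between the groups are therefore given as a description, without p-values. Counts of their probe sets passing at an adjusted p of 0.05 appear only beside the share over all tested probe sets. Nothing is read from those counts. The cells were LNCaP, an established human prostate cancer line, cultured with 10% serum and transfected by lipofection. Of the 4 samples, 2 received an expression vector for MED1, a Mediator subunit through which transcription factors reach RNA polymerase II, and 2 received the empty vector. Total RNA was taken after 24 hours. The transfection was transient, so a sample can pool cells that took up plasmid with cells that did not. The comparison asks how RNA levels differ in cells given extra MED1. For the controls, the free-text description mentions the MED1 vector, but title, source name and transfection label say empty vector and were followed.

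Stanniocalcins 1 and 2 (STC1, STC2) are secreted glycoproteins that block the pappalysin proteases and so keep insulin-like growth factors bound to their binding proteins. GDF15 is a divergent TGF-beta superfamily hormone that acts on the brainstem receptor GFRAL with its partner RET and is known to be made abundantly by prostate cancer cells. VEGFA is the main angiogenic growth factor, and VLDLR is a surface receptor of the lipoprotein receptor family that binds apolipoprotein E and reelin. Their genes are textbook targets of stress pathways: the eIF2 kinases acting through ATF4 and CHOP (DDIT3), and, for the stanniocalcins, VEGFA and VLDLR, the hypoxia-inducible factors.

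Promoter windows from 250 bases before to 50 bases after the transcription start were found for 3 of the 5 genes in RefSeq (GRCh38.p14). They are shown because the RNA of these genes was lower together and because both stress pathways act through short DNA elements. The GC box, also marked, is not specific to either pathway. Capitals mark matches, on either strand, to the core of the hypoxia response element (ACGTG or GCGTG) and to the GC box (GGGCGG).
STC2, chr5:173328365-173328664, minus strand: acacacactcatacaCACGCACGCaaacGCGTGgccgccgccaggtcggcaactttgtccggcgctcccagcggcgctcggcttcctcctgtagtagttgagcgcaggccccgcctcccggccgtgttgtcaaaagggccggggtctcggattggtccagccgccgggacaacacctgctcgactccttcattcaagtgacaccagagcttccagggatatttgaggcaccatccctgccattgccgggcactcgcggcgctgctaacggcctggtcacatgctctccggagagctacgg
GDF15, chr19:18385908-18386207, plus strand: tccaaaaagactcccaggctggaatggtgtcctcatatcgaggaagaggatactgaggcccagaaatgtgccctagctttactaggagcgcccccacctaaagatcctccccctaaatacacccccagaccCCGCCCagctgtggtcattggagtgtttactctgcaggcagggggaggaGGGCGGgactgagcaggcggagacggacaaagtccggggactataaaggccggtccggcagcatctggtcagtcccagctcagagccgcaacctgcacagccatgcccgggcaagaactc
VLDLR, chr9:2621537-2621836, plus strand: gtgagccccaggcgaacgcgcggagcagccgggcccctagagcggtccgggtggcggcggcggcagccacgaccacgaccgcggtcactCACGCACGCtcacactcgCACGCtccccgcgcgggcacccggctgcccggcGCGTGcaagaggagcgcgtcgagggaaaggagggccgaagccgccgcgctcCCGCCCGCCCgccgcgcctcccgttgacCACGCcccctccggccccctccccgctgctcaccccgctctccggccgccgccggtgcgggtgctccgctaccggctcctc
The STC2 window held 3 hypoxia cores and no GC box, with the cores starting at positions -235, -231 and -222 from the transcription start. The VLDLR window held 5 hypoxia cores and 2 overlapping GC boxes, and the GDF15 window held 2 GC boxes and no hypoxia core. Some hypoxia cores overlap each other by 1 base in the STC2 and VLDLR windows. The element bound by ATF4 together with C/EBP factors (TGATGNAA, either strand) did not occur in any of the 3 windows. Among 35116 promoter windows of the same length, 48.4% held a hypoxia core, 45.0% a GC box and 3.62% the ATF4 element. G and C made up 64% of the STC2 window, 59.3% of the GDF15 window and 79% of the VLDLR window, where the median of all windows was 58.7%.

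Signals are MAS5 values on a linear scale, scaled alike on every array, and can be compared between arrays but not between probe sets. The median signal ran from 77.0 to 82.7 over the arrays, and Pearson's r across the 13329 probe sets tested was 0.985 to 0.992 for any pair of arrays. The ratio of 3' to 5' actin control signal, which reflects RNA quality, was 9.32 to 9.40 with the MED1 vector and 8.14 to 9.45 with the empty one, so the groups overlapped. For GAPDH the ratio was 1.16 and 1.24 with the MED1 vector against 1.16 and 1.27. The overlap does not show that the RNA was intact, and the actin ratio was far above 1 on every array. Each of 7 prostate luminal markers was tested, with signals of 167 to 8663 on its brightest probe set. Of their 11 probe sets 6 (3 of KLK2 and 1 each of KLK3, TMPRSS2 and FOLH1) were lower in both MED1 samples than in both empty vector samples, against 22.6% of all tested probe sets. None of the 7 genes passed (limma; 1 lower and 0 higher at an unadjusted p of 0.05), the median log2 fold change was -0.11 with 5 of 7 negative, and the summed signal, 27323 and 29571 with the MED1 vector against 29371 and 31448, overlapped. The part of these markers in the results was not tested. Of 8 endothelial, leukocyte and fibroblast markers, VWF and COL1A1 lay above the filter and the other 6 below it. Mean signals on the brightest probe sets of VWF and COL1A1 were 132 and 105, above the median signal of every array. The summed signal of the list, 349 and 545 with the MED1 vector against 397 and 492 with the empty one, overlapped between the groups. MED1 itself read 559 and 807 in the MED1 samples against 292 and 315 in the empty vector samples by 1 probe set (log2 fold change 1.11 ± 0.16 SE, limma, Benjamini-Hochberg adjusted p = 0.0344). That call was lost without empty vector replicate 1 (adjusted p = 0.0716), without empty vector replicate 2 (0.102), with no filter (0.381) and without the variance trend (0.357). Its other, brighter probe set gave 0.09 ± 0.10 (adjusted p = 0.83).

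All 5 genes read lower in the MED1 samples by their brightest probe set, STC2 at 48.8% of the empty vector mean and the other 4 at 69.1% to 75.9%. Of the 12 probe sets, 9 had both MED1 arrays below both empty vector arrays, 2 overlapped and 1, a dim probe set of GDF15, was higher. The same separation downwards was seen in 22.6% of the 13329 tested probe sets and in 20.4% of the 8886 below the filter. Of the 12, 10 had a mean signal above the filter of 32.2 and entered the limma fit, and 2 of those passed at an adjusted p of 0.05, both of STC2 and both lower, where 0.308% of all tested probe sets passed in either direction and 0.188% as lower. Neither passed with no filter or without the variance trend of the fit. Since these genes were chosen with this comparison known, nothing is read from that count. In bulk RNA, fewer cells making a transcript and less of it per cell cannot be told apart. Over the 10, the log2 fold change of the signal plus 16 ran from -1.001 to -0.24 with a median of -0.43, and over all tested probe sets the median was -0.02.

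**Figure D1:**
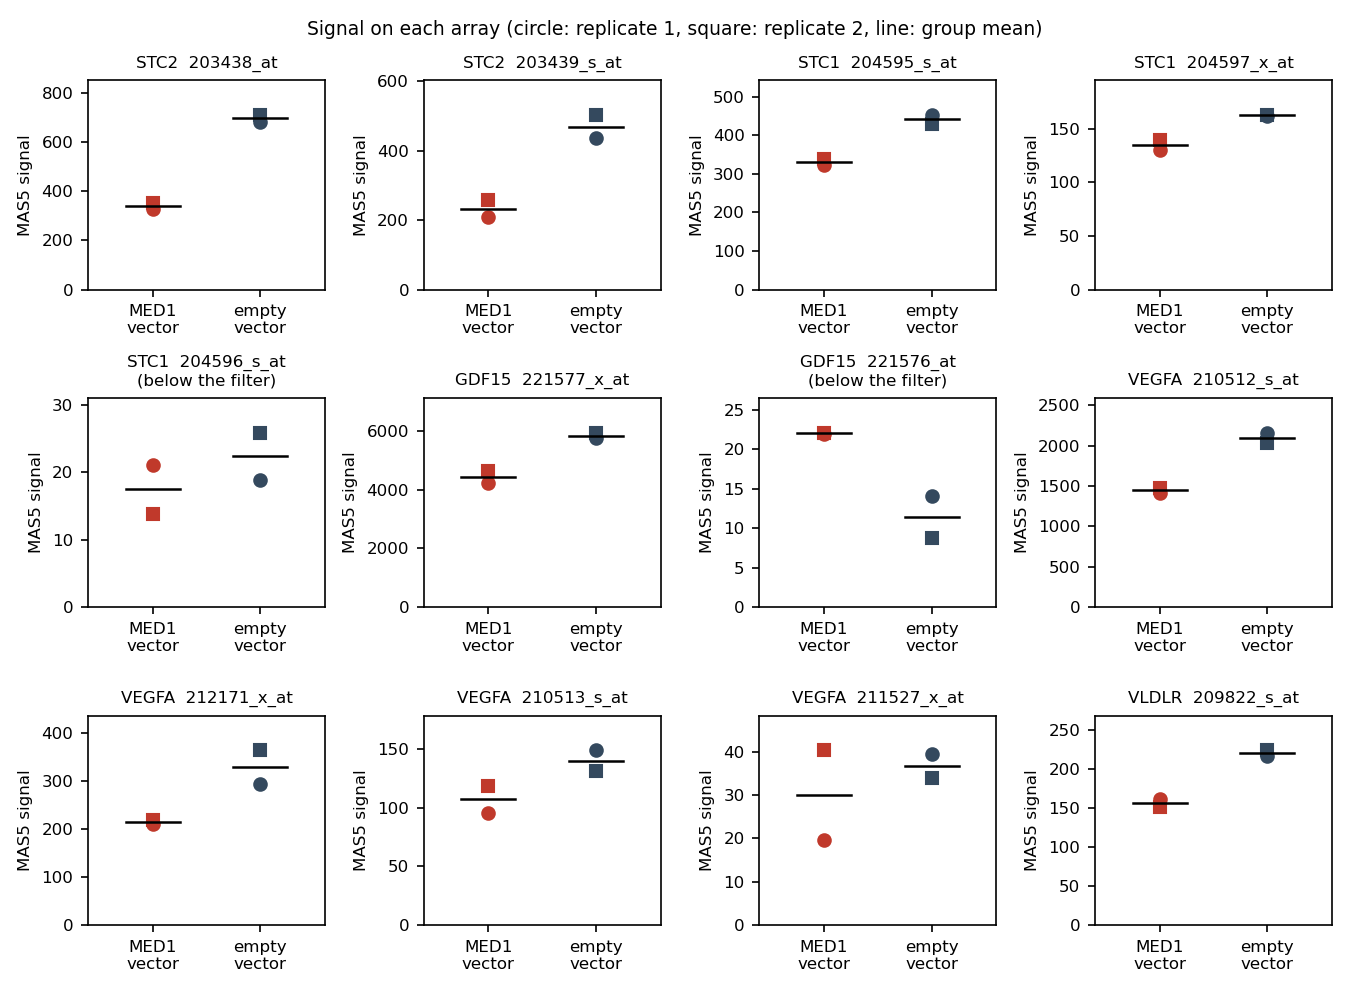
MAS5 signal (linear, from 0, 1 scale per panel) on each of the 4 arrays for the 12 probe sets of STC2, STC1, GDF15, VEGFA and VLDLR, with circles for replicate 1, squares for replicate 2 and a line for the group mean. In 9 panels both MED1 points lie below both empty vector points, the gap relative to the level is widest for STC2 among them, and the 3 exceptions have mean signals of 16.7 to 33.4.

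STC2 was the most lowered of the 5. Its brighter probe set (203438_at) read 327 and 353 in the MED1 samples against 682 and 710.4 in the empty vector samples. The higher MED1 array thus lay far below the lower empty vector array, and the replicates of a group were within 1.08 times of each other. The group means were 340 ± 18.6 and 696 ± 20.3 (SD, n = 2). This is -1.001 ± 0.11 (SE) as a log2 fold change, and the 4 possible ratios of a MED1 array to an empty vector array ran from 0.460 to 0.518. The second probe set (203439_s_at) read 208 and 258 against 436 and 503. It showed the same separation with a wider spread, 233 ± 35.2 against 469 ± 47.5 (log2 fold change -0.97 ± 0.14). On no array did the log2 ratio of the brighter to the dimmer STC2 probe set lie outside 0.43 to 0.63, and the groups overlapped in it, so both probe sets reported a change of like size. Among the 13329 tested probe sets they stood 24th and 30th from the most lowered.

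STC1, the paralogue of STC2, differed less. Its brightest probe set (204595_s_at) read 323 and 339 in the MED1 samples against 453 and 430.0 in the empty vector samples, a log2 fold change of -0.40 ± 0.12 (SE). The groups did not overlap, and the MED1 mean was 74.9% of the empty vector mean. A second probe set (204597_x_at), of the kind that can also match other transcripts, read 130.3 and 139.6 against 162 and 163 (-0.24 ± 0.16). The groups were again apart, by less than on the brightest probe set. The remaining one (204596_s_at) lay below the filter, at 21.1 and 13.8 against 18.9 and 25.9, and there the groups overlapped.

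GDF15 gave high signals. Its bright probe set (221577_x_at, again of the kind that can match other transcripts) read 4227 and 4638 in the MED1 samples against 5743 and 5938 in the empty vector samples. The groups did not overlap, and the means of 4432 ± 291 and 5841 ± 137 (SD, n = 2) gave a log2 fold change of -0.40 ± 0.10 (SE). The other GDF15 probe set (221576_at), designed from the same transcript accession, went the opposite way at signals below the filter. It read 21.9 and 22.1 against 14.1 and 8.80. Both MED1 arrays were above both empty vector arrays there, as on 13.3% of the 8886 probe sets below the filter, and the difference of 0.48 on the log2 scale has no error estimate from the fit.

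VEGFA was covered by 4 probe sets. The brightest (210512_s_at) read 1419 and 1479 in the MED1 samples against 2162 and 2033 in the empty vector samples, a log2 fold change of -0.53 ± 0.09 (SE). The lowest empty vector array was well above the highest MED1 array, and the MED1 mean was 69.1% of the empty vector mean. The next (212171_x_at) read 210.03 and 218 against 293 and 363 (-0.57 ± 0.14), and the third (210513_s_at) 96.0 and 119 against 149 and 132 (-0.35 ± 0.18). Both separated the groups, the third narrowly, since its closest pair of arrays had a ratio of 0.902. The dimmest (211527_x_at), with a mean of 33.4 just inside the filter, read 19.5 and 40.3 against 39.5 and 34.1. Its groups overlapped, its MED1 arrays differed by 2.06 times, and its log2 fold change of -0.24 ± 0.31 became 0.10 without MED1 replicate 1. The nearest probe set of the 5 genes outside the filter was the dim STC1 one, with a mean of 19.9.

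VLDLR had a single probe set (209822_s_at). It read 162 and 152 in the MED1 samples against 217 and 224 in the empty vector samples. The groups did not overlap, and the replicates lay within 1.07 times of each other. The log2 fold change was -0.45 ± 0.14 (SE), with the MED1 mean at 71.2% of the empty vector mean.

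**Figure D2:**
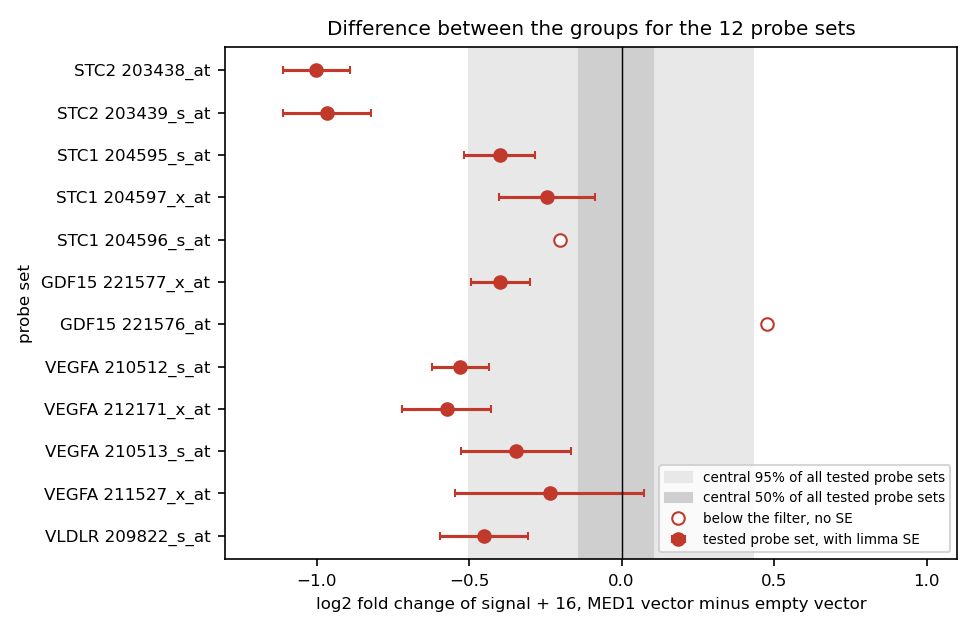
Log2 fold change of signal + 16, MED1 vector minus empty vector, for each of the 12 probe sets, with limma's SE as bars on the 10 tested and open circles without SE for the 2 below the filter; grey bands hold the central 50% and 95% of all 13329 tested probe sets. The STC2 points lie at -1.001 and -0.97, the first 2 VEGFA points at -0.53 and -0.57, and the open GDF15 point at 0.48.

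Ordered by the log2 fold change of the brightest probe set, the genes ran STC2, VEGFA, VLDLR, STC1 and GDF15. VEGFA, VLDLR, STC1 and GDF15 lay between -0.53 and -0.40, and their intervals of 1 SE overlapped. STC2 stood apart from them. The log2 difference of STC2 minus VEGFA signal was -2.07 and -2.02 with the MED1 vector against -1.64 and -1.50 with the empty one. That of STC2 minus STC1 was 0.02 and 0.06 with the MED1 vector against 0.57 and 0.70 with the empty one. The log2 fold change of STC2 was thus more negative than that of VEGFA by 0.47 and of STC1 by 0.60, and than that of VLDLR by 0.55 and of GDF15 by 0.60. In each of these differences the groups did not overlap. These differences come from the comparison that chose the genes and were not tested. They compare changes only, since the levels of different probe sets share no scale.

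Likeness to STC2 was measured as the root mean square difference between log2 profiles over the 4 arrays, each centred on its mean. The 5 closest genes were TRIB3 (0.0123), NUPR1 (0.0243), CEBPB (0.0286), TSC22D3 (0.0517) and CARS1 (0.0535). TRIB3 is a pseudokinase induced by CHOP, NUPR1 a small stress-induced nuclear protein, CEBPB a bZIP transcription factor, TSC22D3 the glucocorticoid-induced leucine zipper and CARS1 the cytosolic cysteinyl-tRNA synthetase. TRIB3 read 1291 and 1366 in the MED1 samples against 2586 and 2705 in the empty vector samples, so its arrays kept the same order and nearly the same ratios as those of STC2. The second STC2 probe set stood at 0.0834, the 10th closest of all tested probe sets. The other genes of the set were farther, the nearest being the second VEGFA probe set at 0.231, in 106th place. A profile over 4 arrays of 2 groups is mostly the difference between the groups, so this order ranks chiefly the size of that difference and how small the spread was.

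**Figure D3:**
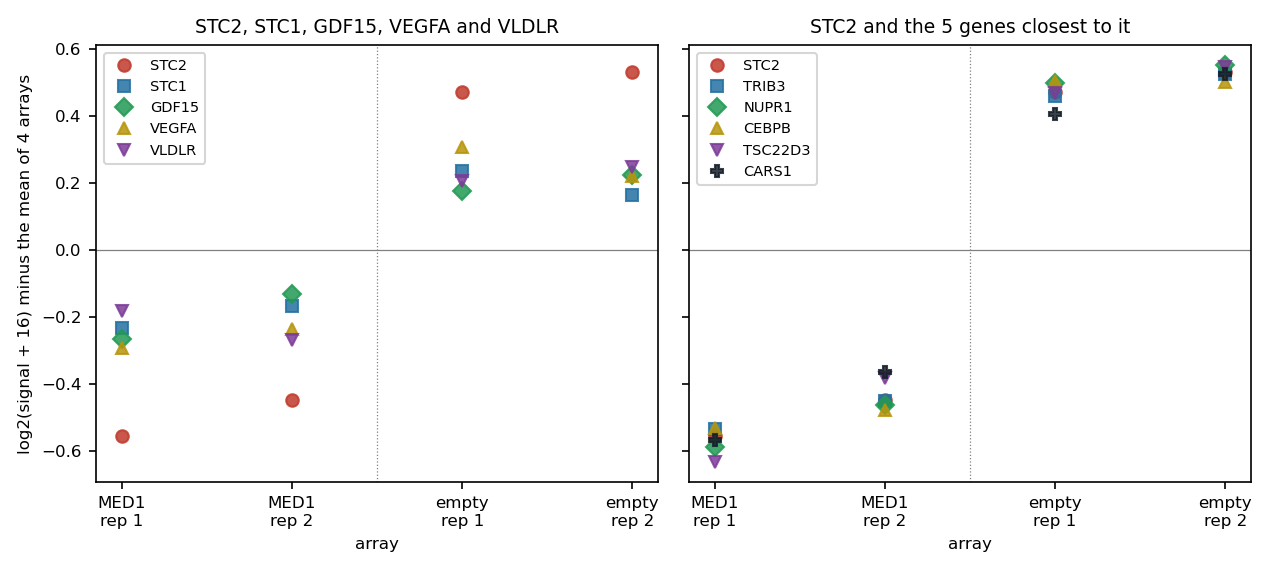
Log2(signal + 16) minus its mean over the 4 arrays, by array, for the brightest probe set of each of the 5 genes (left) and for STC2 with the 5 closest genes (right). On the left STC2 spans the widest range while the other 4 lie close together; on the right the points nearly coincide, at differences from STC2 of 0.0123 to 0.0535.

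Genes around the 5 were taken from 7 lists, with the brightest tested probe set standing for a gene. Over the lists 60 genes were tested and 5 passed, all lower in the MED1 samples and all in the list named regulators. That list holds mainly transcription factors but also the pseudokinase TRIB3, and an action of its genes on the 5 was not tested. In that list 5 of 14 tested genes passed, all lower, and 9 did not pass (limma, Benjamini-Hochberg). Unadjusted, 8 were lower and 0 higher at a p of 0.05 (limma), and 10 of 14 values were negative. The log2 fold changes ran from -1.50 to 0.94, with a median of -0.43. Of all tested probe sets 0.308% passed, and their median log2 fold change was -0.02 over all tested. DDIT3, which encodes CHOP, fell from 1559 and 1564 in the empty vector samples to 449.97 and 648 in the MED1 samples (-1.50 ± 0.15, adjusted p = 0.00402). NUPR1 fell by 1.05 ± 0.09 (adjusted p = 0.00248), CEBPB by 1.01 ± 0.09 (adjusted p = 0.00248) and TRIB3 by 0.99 ± 0.09 (adjusted p = 0.00265). CEBPG, a partner of ATF4, fell by 0.65 ± 0.09 (adjusted p = 0.0233), a call lost without either empty vector replicate (adjusted p = 0.0562 without replicate 1 and 0.1001 without replicate 2). None of the 5 passed with no filter on dim probe sets (adjusted p 0.067 to 0.132) or without the variance trend (0.158 to 0.328). ATF4, the factor that drives many genes of this response, read 6279 and 7944 in the MED1 samples against 10578 and 9798 and did not pass (-0.53 ± 0.13, adjusted p = 0.245, and 0.00108, without MED1 replicate 2, to 0.541 over the alternatives). HIF1A, the oxygen-regulated subunit of the hypoxia-inducible factor, gave -0.00275 ± 0.10 (adjusted p = 0.995), with overlapping groups and a sign that turned to 0.05 when each array was centred on its median. The lists were drawn up with earlier results of these arrays known, so the regulators are no independent support for the lower signals of the 5 genes.

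Of 12 tested hypoxia-induced genes 0 passed by limma, with a median log2 fold change of -0.02. By the brightest probe set, 1 was lower and 1 higher at an unadjusted p of 0.05. For BNIP3 and BNIP3L the result depended on the probe set. Their brightest ones had overlapping groups, and the dimmer ones were lower without overlap. These dimmer ones gave -0.37 ± 0.09 and -0.38 ± 0.09 (limma, adjusted p = 0.268 and 0.223). Dimmer tested probe sets of CA12 had both signs. These genes were named after their values were seen. SLC2A1, the glucose transporter GLUT1, read 431 and 470.04 in the MED1 samples against 428 and 510.0 in the empty vector samples (-0.05 ± 0.13, adjusted p = 0.936), and the groups overlapped. ENO2, a glycolytic enolase, had the largest difference of the list at 104 and 118 against 199 and 271 (-0.97 ± 0.18), with an adjusted p of 0.101 that was 0.0263 without MED1 replicate 1, 0.00307 without MED1 replicate 2 and 0.538 with no filter.

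The proteins that the 5 act on or through showed few differences. Among the pappalysins and the insulin-like growth factor axis on which stanniocalcins act, 0 of 5 tested genes passed (limma; 1 lower and 0 higher at an unadjusted p of 0.05), and the list median was 0.18. IGF1 gave -0.37 ± 0.12 by its brightest probe set (adjusted p = 0.428), and its other 3 probe sets gave 0.10, -0.20 and -0.11 with overlapping groups. PAPPA, the protease that STC2 binds, and IGFBP4, its substrate, had signals below the filter. Among TGF-beta superfamily genes related to GDF15, with RET and the convertase FURIN, 0 of 7 passed (1 lower and 0 higher unadjusted), with a median of -0.12. GDF11, a ligand of the activin branch, differed most, at -0.46 ± 0.17 (adjusted p = 0.471).

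In the VEGF family 0 of 3 tested genes passed (1 lower and 0 higher unadjusted; limma), and the median was -0.03. VEGFB, a relative of VEGFA that binds FLT1, read 61.1 and 19.5 in the MED1 samples against 65.2 and 98.5 (-0.88 ± 0.36, adjusted p = 0.497), with MED1 arrays far apart, and without MED1 replicate 1 its adjusted p was 0.0198, the lowest of a range up to 0.869 over the alternatives. NRP1, a coreceptor for VEGFA, gave -0.03 ± 0.16 (adjusted p = 0.976), a sign that turned with median centring. In the lipoprotein receptor family, its ligands and adaptors, 0 of 9 passed (1 lower and 0 higher unadjusted), with a median of -0.07. LRP8, the other reelin receptor, read 424 and 429 in the MED1 samples against 387 and 371, a direction opposite to VLDLR (0.17 ± 0.11, adjusted p = 0.682). Its dimmer probe set, not in the counts, read 294 and 353 against 219 and 256, also higher without overlap. There the log2 fold change was 0.42 ± 0.15 (limma, unadjusted p = 0.0181, adjusted p = 0.437). APOE, a ligand of VLDLR, read 27.8 and 29.8 against 81.8 and 99.1 by a probe set that can match other transcripts (-1.24 ± 0.23). Its adjusted p was 0.1, and ran from 0.0226 without MED1 replicate 2 to 0.538 over the alternatives, while 2 dimmer APOE probe sets had overlapping groups.

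Among other secreted or surface proteins induced by stress, 0 of 10 tested genes passed (limma; 1 lower and 2 higher at an unadjusted p of 0.05), and the median was 0.06. PLAUR, the urokinase receptor, had the largest difference at -0.58 ± 0.30 (adjusted p = 0.598), at signals of 21.8 to 63.5. Its unadjusted p was 0.0865 (limma), and its 2 other probe sets lay below the filter with overlapping groups. The gene counted as lower was SLC3A2, and the 2 higher were IGFBP3 (0.48 ± 0.15) and MANF (0.25 ± 0.10). These 3 were named after their values were seen. Of the 10 values 4 were negative.

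**Figure D4:**
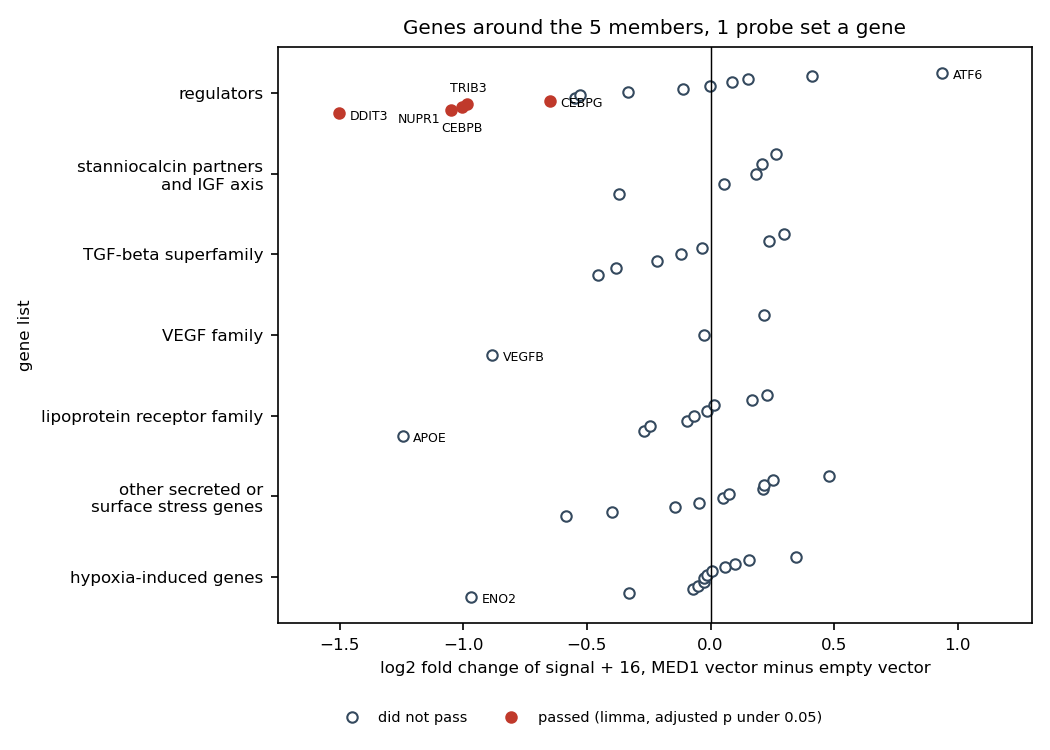
Log2 fold change of signal + 16, MED1 vector minus empty vector, of the tested genes of 7 lists, 1 point per gene by its brightest tested probe set; filled points passed limma at an adjusted p of 0.05. The 5 filled points are regulators, from DDIT3 at -1.50 to CEBPG at -0.65, and no point of the other 6 lists is filled.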

How the data were processed

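Expression was measured on Affymetrix arrays in 4 samples, 2 per group. The authors deposited linear MAS5 intensities, named so in the submitters' processing notes; no other step is stated in the labels. The mean after trimming 2% at each end came to 500.2 on all 4 arrays, and no scaling was added. Of 22277 probe sets, 62 controls were left out, and 19064 of the rest named 1 gene, with 19052 matched to RefSeq (GRCh38.p14) for names. Signals were transformed to log2(signal + 16), which understates the change of dim genes; probe sets under the 40th percentile of mean signal were left out. Groups were compared with limma 3.58.1 (lmFit, eBayes with intensity trend, two-sided) in R 4.3.3, Benjamini-Hochberg adjusted over all probe sets tested; the procedure was tested on simulated data. SDs are between 2 arrays, SEs are limma's with 7.12 prior degrees of freedom beside 2 residual ones, and an exact permutation test cannot reach 0.05 here. Since no label says that duplicates are separate cultures, the spread behind the p-values may be technical.

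The genes, lists and tests were chosen with earlier results of these data known. Named genes are the 5 with all their probe sets, MED1, the genes that passed in each list or else the one of largest change, 11 genes picked by name (1 is not reported here), and the 5 closest to STC2. Alternatives changed the pseudocount, scaling, filter, variance trend, replicate block and probe set rule, and left out each array.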

Additional observations from a re-analysis of the deposited data

How the results depend on the processing

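The number of probe sets passing was 41, and 36 to 45 with other pseudocounts, scalings and the 60th-percentile filter. It was 0 with no filter (limma; 1680 at an unadjusted p of 0.05), 7 without the variance trend, 230 with the replicate block and 25 to 215 when leaving out 1 array, the lone sample being taken to vary like the other group. Of the 5 passing regulators, 0 passed with no filter or without the trend; over the 7 lists 9 genes passed with the block, among them ATF4 (adjusted p = 0.00915), ENO2 (0.00979) and APOE (0.0295), and 4 to 9 on leaving out 1 array. Of the tested member probe sets, 4 passed with the block, where 1.73% of all tested probe sets passed. With no filter or without the trend 0 of them passed, where 0% and 0.0525% of all did. Since the genes were chosen with this comparison known, nothing is read from these counts. Same-numbered deviations correlated at 0.12 over 2 pairs, too few for the numbers to pair the samples.

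The brightest STC2 probe set gave -0.91 with a pseudocount of 64 and -1.05 to -0.95 with an array left out, and the second -0.85 and -1.11 to -0.82. The brightest STC1 probe set gave -0.35 with median centring, and the second -0.19 both with that pseudocount and with median centring; VLDLR gave -0.36 and -0.40 in those settings. With an array left out the 2 STC1 probe sets ran from -0.44 to -0.36 and from -0.29 to -0.20, and VLDLR from -0.49 to -0.41. The median of the tested member probe sets was -0.53 under the 60th-percentile filter, which keeps 7 of them, and -0.52 to -0.43 on leaving out 1 array. The sign changed, besides the dimmest VEGFA probe set (-0.57 to 0.10 with an array left out), for HIF1A (0.0492 with median centring, -0.0630 to 0.0575 with an array left out), NRP1 (0.0250 with median centring, 7.38e-05 with quantile normalization, -0.23 to 0.18 with an array left out) and SLC2A1 (-0.175 to 0.0695), none with a call. The cause was not tested. No detection calls were used, so low signals have no known background, and the number of arrays limits the precision.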

Other observations

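Some genes of the lists lay below the filter on signal and entered no comparison; apart from ADM, PAPPA and IGFBP4 they were chosen after their values were seen. FGF21, a secreted stress hormone and known ATF4 target, read 6.83 and 8.80 in the MED1 samples against 36.2 and 44.0 in the empty vector samples, so the groups did not overlap. INHBE, an inhibin beta subunit also induced by ATF4, read 9.98 and 10.7 against 15.9 and 19.7. ADM, a hypoxia-induced peptide hormone, read 23.8 and 24.6 against 30.0 and 44.6. In all 3 both MED1 arrays lay below both empty vector arrays, as on 20.4% of probe sets below the filter. PAPPA read 18.8 and 12.6 against 4.07 and 38.6 by its brighter probe set, and IGFBP4 3.95 and 2.04 against 3.20 and 4.69, both with overlapping groups.

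TNFRSF10B, the death receptor DR5 and a known target of CHOP, was named after its values were seen. By the brightest of its 3 probe sets it read 3334 and 3022 in the MED1 samples against 2909 and 2568 in the empty vector samples. A relation to DDIT3 was not tested. None of the 3 passed (log2 fold changes 0.21 ± 0.10, 0.43 ± 0.20 and 0.14 ± 0.17; limma, Benjamini-Hochberg adjusted p = 0.583, 0.58 and 0.838). SLC3A2, the heavy chain shared by several amino acid transporters at the cell surface, was also named after its values were seen, at 754 and 701 against 936 and 991 (-0.40 ± 0.10, adjusted p = 0.262).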
